A study of Mus musculus with 8 samples.

Results

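The regions described here are stretches of open liver chromatin that lie nearest to 9 genes of gluconeogenesis and of the fasting response to insulin: Pck1, G6pc, Fbp1, Pcx, Tat, Igfbp1, Irs2, Foxo1 and Sik1. Each of the 49587 consensus regions deposited for the series was given to the protein-coding gene whose span was nearest on mm10, up to 100 kb away, and 103 regions fell to these genes. Irs2 had 23 of them, Pcx 19, Sik1 13, Tat 10, Fbp1 9, Pck1 8, G6pc 8, Foxo1 8 and Igfbp1 5. Within 1 kb of a listed gene start there were 10 regions. The downstream end of a gene had 8, the inside of a gene held 29, and 52 lay outside. The other 4 were within 1 kb of an end of Sik1, for which no start was listed (3 regions), or at the upstream end of the annotated span of Tat (1).

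Chromatin accessibility had been measured by ATAC-seq, which maps open DNA by the insertion of a transposase, in flash-frozen livers of 9-week-old male C57BL/6 mice after a 24 h fast. The 4 genotypes had 2 libraries each: wild type, Cpt2 L-/- (a knockout in the liver), Ppara -/-, and Cpt2 L-/- ; Ppara -/-, which the labels describe as a liver knockout of Cpt2 with a whole-body knockout of Ppara. They are called wild type, Cpt2 knockout, Ppara knockout and double knockout below, and the first 2 and last 2 genotypes are called Ppara-intact and Ppara-null. The Cre line is not given in the labels, all 4 groups were fasted, and no fed group was analysed here. The labels do not say that replicates came from separate animals, so p-values measure only the spread between these libraries.

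In fasting, the liver makes glucose from lactate, glycerol and amino acids. Glucagon, through cAMP, and glucocorticoids raise transcription of the enzymes, whereas insulin lowers it by keeping the transcription factor FOXO1 out of the nucleus. Fatty acid oxidation supplies the energy for gluconeogenesis: Cpt2 encodes a carnitine palmitoyltransferase of that route in mitochondria, and Ppara encodes a nuclear receptor that raises expression of fatty acid oxidation genes in the fasted liver.

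The promoters of 4 members that carry a searched motif are shown first, with that of Tat, whose start had fewer calls than theirs. They are the 250 bases before the listed start in RefSeq on GRCm38.p6, 5′ to 3′ on the strand of the gene, with the motifs found in capitals. They span chr2:173152823-173153072 (Pck1, plus strand), chr11:101367466-101367715 (G6pc, plus), chr11:7197537-7197786 (Igfbp1, plus), chr8:11008930-11009179 (Irs2, minus) and chr8:109990186-109990435 (Tat, plus).
Pck1: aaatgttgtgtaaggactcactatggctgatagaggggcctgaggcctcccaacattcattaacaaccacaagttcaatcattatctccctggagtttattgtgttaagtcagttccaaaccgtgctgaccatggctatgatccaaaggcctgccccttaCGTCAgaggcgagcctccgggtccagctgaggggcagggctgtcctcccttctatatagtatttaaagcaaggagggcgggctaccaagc
G6pc: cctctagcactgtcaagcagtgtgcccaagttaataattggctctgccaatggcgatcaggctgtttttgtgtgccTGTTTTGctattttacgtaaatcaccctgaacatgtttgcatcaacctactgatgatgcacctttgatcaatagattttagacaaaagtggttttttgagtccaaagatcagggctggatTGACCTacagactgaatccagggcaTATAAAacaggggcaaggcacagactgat
Igfbp1: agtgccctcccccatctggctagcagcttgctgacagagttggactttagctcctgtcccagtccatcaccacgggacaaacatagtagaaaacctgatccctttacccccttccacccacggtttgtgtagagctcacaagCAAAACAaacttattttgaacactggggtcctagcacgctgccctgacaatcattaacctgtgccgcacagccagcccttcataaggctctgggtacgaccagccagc
Irs2: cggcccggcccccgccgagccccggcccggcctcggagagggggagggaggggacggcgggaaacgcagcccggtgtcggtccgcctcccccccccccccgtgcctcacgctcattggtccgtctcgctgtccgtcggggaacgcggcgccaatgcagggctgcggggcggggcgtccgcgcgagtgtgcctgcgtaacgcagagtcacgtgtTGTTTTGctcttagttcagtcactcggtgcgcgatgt
Tat: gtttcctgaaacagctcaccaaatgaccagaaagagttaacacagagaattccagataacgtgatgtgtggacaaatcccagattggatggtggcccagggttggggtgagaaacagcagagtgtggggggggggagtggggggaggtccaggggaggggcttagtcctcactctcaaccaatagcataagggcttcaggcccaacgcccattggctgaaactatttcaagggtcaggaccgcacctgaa

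RefSeq listed 9 promoters for 8 of the genes, each of 250 bases before and 50 bases after the start, and none for Sik1. The insulin response motif TGTTTTG, searched like the others on both strands, was found in G6pc (bases -174 to -168 from the start), in Igfbp1 as CAAAACA (-108 to -102) and in Irs2 (-37 to -31). Of all 32851 promoters, 6.28% held it. The core TGACG of the cAMP response element was found, as CGTCA, in Pck1 (-90 to -86) and in 20.8% of all promoters. The nuclear receptor motif AGGTCA was found, as TGACCT, in G6pc (-54 to -49) and after the second start of Pcx (bases 40 to 45), and in 16.3% of all promoters. TATAAA was found in G6pc alone of the 9 (-29 to -24) and in 13.6% of all promoters. The letters TGTTTAC (3.65% of all promoters), TGACGTCA (1.79%) and AGAACA (19%), and 2 copies of AGGTCA 1 base apart in one direction (0.0396%), were in none of the 9 windows. TGACG is part of TGACGTCA, and AGGTCA of its own repeat. A match is a description of letters, not a measured binding site.

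A region counts as called in a library where a peak of that library overlapped it by at least 1 bp. Of the 103 member regions, 59.2% and 72.8% were called in the 2 wild type libraries, 79.6% and 70.9% in Cpt2 knockout, 40.8% and 34% in Ppara knockout, and 52.4% and 44.7% in double knockout. The Ppara-intact libraries were thus all above the Ppara-null ones: 70.6% ± 8.48 against 43% ± 7.7 (SD, n = 4 each), a difference of -27.7 percentage points. Over all 49587 regions the shares were 69.4% and 38.9%, a difference of -30.6 points, so the members followed the whole lists. When each library was cut to its 18132 strongest peaks, the length of the shortest list, the members' difference was -2.43 points (43.9% and 41.5%), beside 36.4% and 35.7% for all regions. In bulk liver, fewer cells of a type and less accessibility per cell cannot be told apart.

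**Figure D1:**
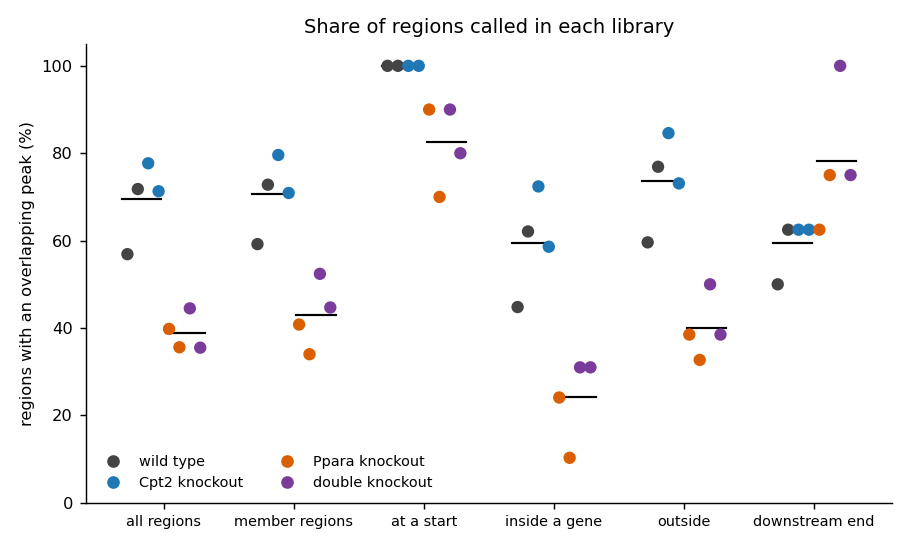
The y axis gives the percentage of regions with an overlapping peak in each library, for all 49587 regions, the 103 member regions and the members by position; each point is a library, coloured by genotype, and bars are means of the 4 Ppara-intact (left) and 4 Ppara-null (right) libraries. Of the 6 sets drawn, the mean was lower on the right in all but the 8 regions at downstream ends (59.4% and 78.1%). Of those 8, 3 were listed only through calls in Ppara-null libraries. The 4 members of other classes are not drawn apart.

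The lists differed as wholes. Libraries with intact Ppara had 28733 to 39296 peaks, those without it 18132 to 22715. A number in the peak names was 441, 443, 446 or 4717 with intact Ppara and 6831 to 6834 without it, so what it stands for and Ppara status cannot be told apart. MACS2, the authors' peak caller, gives each peak a fold over local background and a −log10 p-value. Both are the authors' values for that peak, and together they gave the whole number of tags piled up over the summit and the local background in tags for all peaks. The lowest background was 4.097 tags in every list, whereas the median summit over the 11258 regions called in all 8 libraries held 90 to 127 tags with intact Ppara and 49 to 59 without it. Summit tags were lower without Ppara in 93% of those regions (limma on log2 tags, described further on). A lack of overlap at a single member below is to be read beside this share. Defining hepatocyte genes were open in every library: 6 of 7 markers had at least 1 region called in each, which need not be the same one. Calls at these markers numbered 21 to 27 where Ppara was intact and 16 to 22 where it was lost. Calls at 4 endothelial markers numbered 9 to 19 with intact Ppara and 3 to 5 without it, at 5 stellate markers 2 to 5 and 0 to 1, and at 4 cholangiocyte markers 2 to 3 and 0 to 1. Calls at 5 Kupffer cell and 3 lymphocyte markers were 0 or 1 in every library. Clec4f, Vsig4, Adgre1, Marco, Des, Dcn, Krt19, Krt7, Ptprc and Cd3e had no region. The part of these markers in the differences below was not tested.

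Pck1 encodes the cytosolic phosphoenolpyruvate carboxykinase, the enzyme that commits oxaloacetate to glucose. The region at its start (chr2:173152408-173153460) was called in 7 libraries, with −log10 p of 77.8 and 94.1 in wild type, 72.7 and 60.9 in Cpt2 knockout, 14.0 in Ppara knockout 1 and 36.6 and 27.7 in double knockout. Ppara knockout 2 had no peak there, and every Ppara-intact value lay above every Ppara-null one. The region at its downstream end (chr2:173159351-173160797, 7.0 kb from the start) behaved otherwise: its summit held 294 and 268 tags in wild type, 297 and 218 in Cpt2 knockout, 288 and 287 in Ppara knockout, and 344 and 238 in double knockout. The Ppara-null and Ppara-intact values overlapped there, while the log2 tags of the median common region differed by -1.07.

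Within the gene, 3 further Pck1 regions were called in Ppara-null libraries alone. Of all 49587 regions, 5.43% had no call in a Ppara-intact library, and of the 103 members 7 (6.8%). The one centred 5.6 kb from the start (chr2:173158358-173158998) was called in Ppara knockout 2 with 248 tags and in double knockout 1 with 208. Those at 5.0 and 1.7 kb were each called in 1 Ppara-null library. The highest single −log10 p at Pck1 belonged to a region 6.1 kb upstream (chr2:173146690-173147164), with 61.5 and 112 in wild type, 93.6 and 83.2 in Cpt2 knockout, 48.4 and 27.3 in Ppara knockout, and 39.0 and 26.2 in double knockout. Ppara-intact and Ppara-null values did not overlap, and its fold ran from 4.69 to 8.39. This region led the gene in 2 of 8 libraries, and the downstream end led in the other 6.

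G6pc encodes the catalytic subunit of glucose-6-phosphatase, which releases free glucose. Its start region (chr11:101367334-101367960), which contains the printed promoter, had −log10 p of 75.6 and 95.5 in wild type, 78.3 and 98.8 in Cpt2 knockout, 21.0 and 14.9 in Ppara knockout, and 29.1 and 17.1 in double knockout. All Ppara-intact values were above all Ppara-null ones, and so were the folds, at 7.64 to 8.93 against 4.88 to 6.74. A region centred 5.2 kb upstream (chr11:101362204-101362728) had 102 and 122 in wild type, 110 and 83.1 in Cpt2 knockout, 15.3 and 11.98 in Ppara knockout, and 40.6 and 45.9 in double knockout. Double knockout lay between the Ppara-intact libraries and Ppara knockout at this region, with no overlap.

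The region with the highest single G6pc peak, which led in 7 of 8 libraries, at its downstream end 11.2 kb from the start (chr11:101378264-101379644), had 134 and 133 in wild type, 169 and 98.7 in Cpt2 knockout, 39.7 and 16.5 in Ppara knockout, and 93.6 and 55.9 in double knockout. Its highest fold was in double knockout 1, at 14.4, against 9.38 to 13.1 in Ppara-intact libraries. Of the other 5 G6pc regions none was called in a Ppara-null library, and none was called in all 4 Ppara-intact libraries. Of all regions, 42.3% had no call in a Ppara-null library.

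Fbp1 encodes fructose-1,6-bisphosphatase, a later step of the pathway. Its start region (chr13:62887889-62888676) had −log10 p of 109 and 107 in wild type, 192 and 73.5 in Cpt2 knockout, 41.9 and 31.5 in Ppara knockout, and 49.8 and 36.1 in double knockout. The groups did not overlap, although the 2 Cpt2 knockout libraries were far apart. The strongest region lay 19.7 kb outside the gene (chr13:62907976-62908663), with 140 and 219 in wild type, 202 and 195 in Cpt2 knockout, 47.7 and 48.4 in Ppara knockout, and 80.7 and 68.4 in double knockout. Ppara-intact values again stood above all others, and both double knockout values stood above both Ppara knockout values. The 5 regions inside the gene were called in 1 to 3 Ppara-intact libraries each and in no Ppara-null library. No Ppara-null library called 55.2% of the 29 member regions inside genes and 42.3% of all regions.

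Pcx encodes pyruvate carboxylase, the mitochondrial entry step, and has 2 listed starts. The first (chr19:4509906-4510758) was the strongest Pcx region, with −log10 p of 212 and 243 in wild type, 239 and 98.0 in Cpt2 knockout, 72.0 and 65.4 in Ppara knockout, and 84.8 and 55.0 in double knockout. Cpt2 knockout 2 was the lowest Ppara-intact value but still above all Ppara-null ones. The second start (chr19:4593787-4594537) had 32.2 and 47.6 in wild type, 56.6 and 32.9 in Cpt2 knockout, 14.5 in Ppara knockout 1 and 12.2 in double knockout 1, and no peak in the other 2 libraries. Of 17 regions inside the gene, 1 was called in the 4 libraries with intact Ppara alone (chr19:4569693-4570114), with low values of 11.4 and 19.7 in wild type and 19.1 and 12.9 in Cpt2 knockout.

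Tat encodes tyrosine aminotransferase, a glucocorticoid-induced enzyme of amino acid breakdown. Its start region (chr8:109990168-109990640), printed above, had −log10 p of 31.4 and 67.5 in wild type, 67.2 and 31.3 in Cpt2 knockout and 11.5 in Ppara knockout 2. The other 3 Ppara-null libraries had no peak at the start. Summits lay 11 to 18 bases before the start (-18 to -11) in the 5 libraries with a peak. Its strongest region lay 10.9 kb upstream (chr8:109979264-109979841), with 106 and 104 in wild type, 164 and 145 in Cpt2 knockout, 114 and 58.1 in Ppara knockout, and 153 and 160 in double knockout. Ppara-intact and Ppara-null values overlapped there, and Ppara knockout 2 was the lowest.

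Near its downstream end Tat had the only member region past the rank test described further on (chr8:109998214-109999404, 8.4 kb from the start). Its −log10 p was 20.3 and 11.2 in wild type, 21.0 and 24.3 in Cpt2 knockout, 28.3 and 42.9 in Ppara knockout, and 31.8 and 29.1 in double knockout. The 4 Ppara-null values were above the 4 Ppara-intact ones. Tags over the summit were 116, 83, 134 and 167 in the Ppara-intact and 161, 179, 171 and 196 in the Ppara-null libraries, in the same order of libraries, and overlapped. The fold overlapped too, at 2.27 to 2.69 and 2.50 to 3.40, and the local background was high in all 8 lists, at 35.9 to 77.7 tags. The neighbouring region just past the end of the gene (chr8:109999828-110000570) had 231 and 188 tags in wild type, 282 and 236 in Cpt2 knockout, 211 and 147 in Ppara knockout, and 266 and 344 in double knockout, again overlapping.

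**Figure D2:**
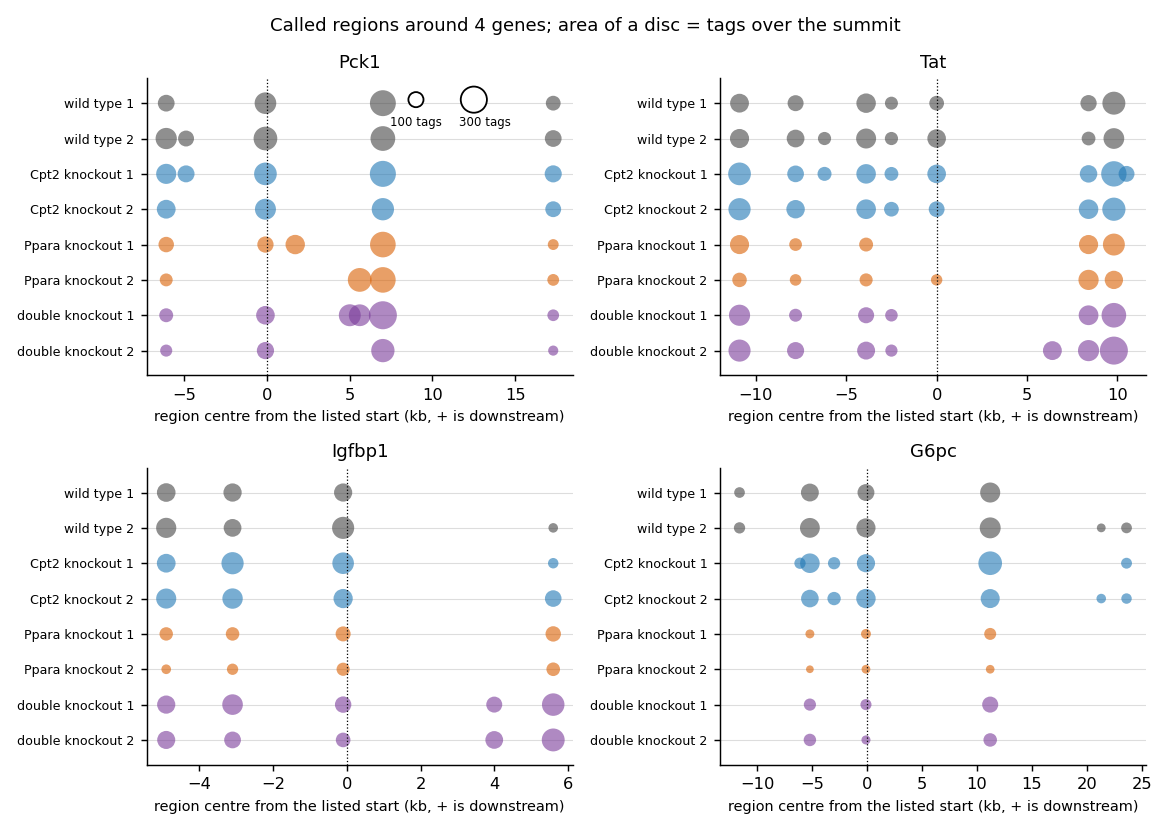
Each row is a library and each disc a called region, placed by the distance of its centre from the listed start in kb, with area in proportion to the tags over the summit, for Pck1, Tat, Igfbp1 and G6pc. At the start of Pck1, discs were larger in the 4 upper rows (193 to 246 tags) than in the lower ones (116 to 152, with 1 missing), while those 7.0 kb downstream were of like size (218 to 344).

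Igfbp1 encodes a secreted binding protein for insulin-like growth factors whose transcription insulin lowers. The start region (chr11:7197469-7197984), which held the highest single peak of the gene but led in wild type 2 alone, had −log10 p of 64.3 and 113 in wild type, 96.4 and 50.5 in Cpt2 knockout, 32.7 and 28.4 in Ppara knockout, and 28.0 and 15.5 in double knockout. The Ppara-intact libraries were all higher. A region just past the downstream end (chr11:7202580-7204215, 5.6 kb from the start) had the opposite order: no peak and 16.0 in wild type, 18.2 and 36.9 in Cpt2 knockout, 35.8 and 30.7 in Ppara knockout, and 94.6 and 87.8 in double knockout. Both double knockout values were above every other library there, whereas Ppara knockout overlapped Cpt2 knockout. This region ends 1.9 kb from the span of Igfbp3, the next gene. A smaller region inside the end of Igfbp1 (chr11:7201692-7201957) was called in both double knockout libraries, with 112 and 138 tags, and in no other. Its local background there was high, at 41.5 and 47.8 tags, and 0.248% of all regions had this pattern of calls.

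At 4.9 kb upstream of Igfbp1 (chr11:7192605-7193163) the summit held 152 and 178 tags in wild type, 154 and 177 in Cpt2 knockout, 79 and 41 in Ppara knockout, and 145 and 143 in double knockout. At 3.1 kb upstream (chr11:7194422-7194913) the tags were 146 and 138, 216 and 182, 80 and 56, and 186 and 123 in the same order. Ppara knockout was the lowest genotype at both, and double knockout was near or within the range of the Ppara-intact libraries.

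The libraries could also be compared by the tags at the downstream end divided by those at the start of the same gene. A factor common to all tags of a library cancels in this ratio. Summit tags include the local background, so a difference between libraries in tags over background does not cancel. This ratio was chosen after the values were seen. For Pck1 it was 1.43 and 1.09 in wild type, 1.32 and 1.13 in Cpt2 knockout, 2.48 in Ppara knockout 1, and 2.26 and 1.83 in double knockout. For Igfbp1 it was 0.187 in wild type 2, 0.235 and 0.747 in Cpt2 knockout, 1.05 and 1.07 in Ppara knockout, and 1.88 and 2.45 in double knockout. Ppara-null ratios were above all Ppara-intact ratios for both genes, while those of G6pc overlapped, at 0.964 to 1.69 against 0.971 to 2.22. Tat had a ratio in 1 Ppara-null library only. Of 129 genes with a ratio in at least 3 libraries of each status, 20.2% had a higher ratio in all Ppara-null libraries and 3.1% a lower one, so 2 of 3 members stand against a background in which such an order was common. By calls, the 8 downstream-end regions of the members differed from the 884 such regions of all genes with 1 listed start, of which 66.2% were called on average in Ppara-intact and 37.2% in Ppara-null libraries. This difference rests on few regions of 4 genes and was not tested. Of the 8, 3 (37.5%) had no call in a Ppara-intact library, so they were listed only through Ppara-null calls. Of all 49587 regions, 5.43% had no call in a Ppara-intact library.

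The local background around these genes was itself among the highest in the lists. The highest background at a Pck1 peak was 49.4 to 93.1 tags, with 1 to 16 peaks of a list higher. At Tat it was 35.9 to 81.0 tags with 2 to 163 peaks higher, and at Igfbp1 16.0 to 47.8 tags with 14 to 665 peaks higher. G6pc was different: its highest background was 13.3 to 20.6 tags with intact Ppara and 5.9 to 7.16 tags without it, with 2216 to 9565 peaks higher in a list. A high background lowers the fold of a peak, so folds of Pck1, Tat and Igfbp1 are not to be read as levels. Folds of G6pc and of these other members are not to be compared as levels between Ppara-intact and Ppara-null libraries, since their backgrounds differed.

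**Figure D3:**
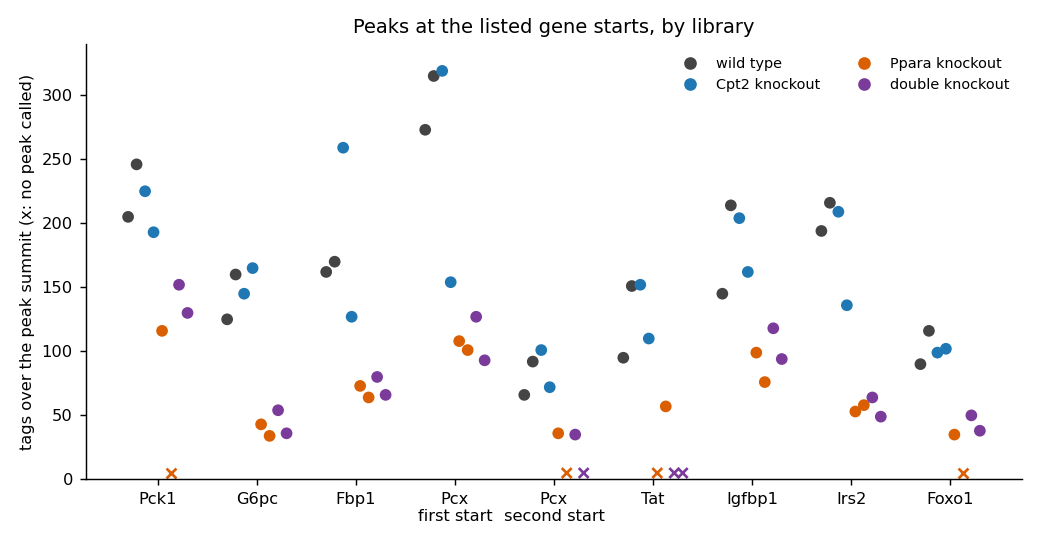
Tags over the strongest summit (y axis) at the listed starts of 8 genes, with a point per library coloured by genotype and a cross where no peak was called. All Ppara-intact points stand above all Ppara-null points at each of the 9 starts drawn, and the 7 crosses are all in Ppara-null libraries. Log2 tags were lower in Ppara-null libraries in 93% of the 11258 regions called in all 8 libraries (limma), so lower tags were not particular to these starts.

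Irs2 encodes an insulin receptor substrate that carries the insulin signal in hepatocytes. Its start region (chr8:11008742-11009223) had −log10 p of 93.8 and 112 in wild type, 104 and 48.6 in Cpt2 knockout, 17.2 and 20.8 in Ppara knockout, and 17.5 and 14.0 in double knockout. The region 0.8 kb before it (chr8:11009413-11010052) had 40.8 and 52.8, 84.2 and 88.5, 15.5 and 17.4, and 28.7 and 18.9 in the same order. Neither overlapped between Ppara-intact and Ppara-null libraries. Of the 7 member regions that every library with intact Ppara called and no other did, 4 were nearest Irs2, all downstream of it, and centred 97.4, 96.3, 73.4 and 62.7 kb from its start. Irs2 had 23 of the 103 member regions, and 6.82% of all regions had this pattern. In lists of equal length, only the one at 97.4 kb kept it among these 4.

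The first of these (chr8:10911309-10911802), which held the highest single Irs2 peak but led in wild type 2 alone, had −log10 p of 54.0 and 148 in wild type and 115 and 89.8 in Cpt2 knockout, with 85 to 189 tags. A region 12.2 kb outside the gene on the other side (chr8:11021149-11021617) was called throughout. Wild type had 81.9 and 130 there, Cpt2 knockout 144 and 91.7, Ppara knockout 43.6 and 37.4, and double knockout 31.4 and 29.4. It was above the former in the Ppara-intact libraries other than wild type 2, narrowly in Cpt2 knockout 2. The former had no peak in a Ppara-null library. The next separated region (chr8:10912524-10912815) had 13.8, 19.9, 29.97 and 13.04 in the 4 Ppara-intact libraries. The third (chr8:10935312-10935740) had 12.6 and 17.1 in wild type and 35.2 and 47.9 in Cpt2 knockout, and the fourth (chr8:10946044-10946479) had 18.6, 17.5, 34.02 and 30.01. At the last 2, both Cpt2 knockout values were above both wild type values. Irs2 stands alone on this stretch: the next protein-coding gene, Col4a1 or Myo16, was at least 99.6 kb from any Irs2 region. Nearest gene is a position and not a shown target.

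**Figure D4:**
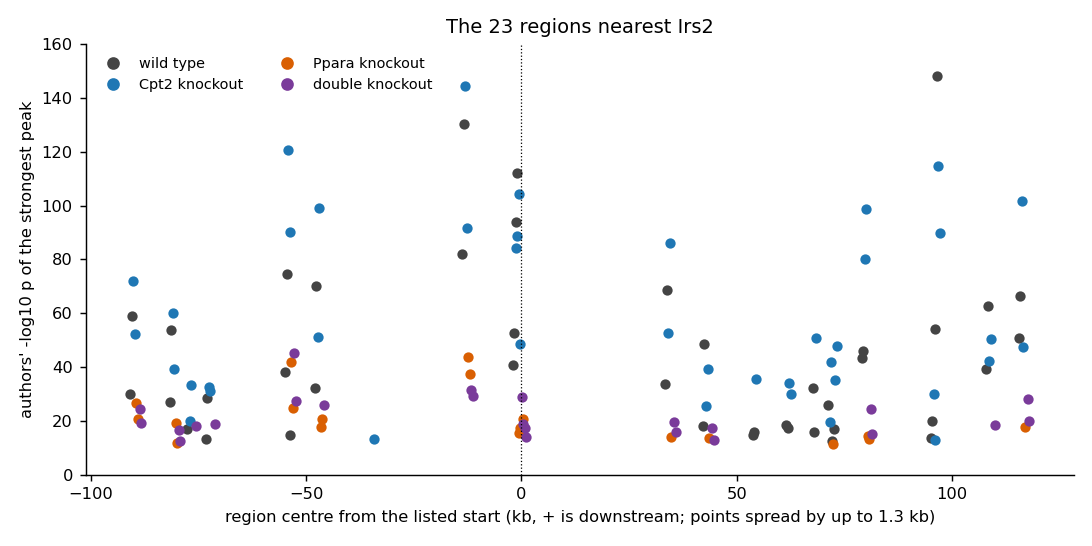
The y axis gives the authors' −log10 p of the strongest peak in each of the 23 regions nearest Irs2 against the distance of its centre from the listed start in kb, a point per library that called it. The region 97.4 kb downstream reached 148 in wild type 2 and has no Ppara-null point.

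Foxo1 encodes the forkhead factor that insulin signalling keeps out of the nucleus. Its start region (chr3:52268130-52269430) had −log10 p of 42.7 and 57.0 in wild type, 47.1 and 42.8 in Cpt2 knockout, 11.7 in Ppara knockout 1, none in Ppara knockout 2, and 21.0 and 16.1 in double knockout. The Ppara-intact values were all higher. A region inside the gene, 22.7 kb from the start (chr3:52290667-52291340), had 36.2 and 56.4 in wild type and 54.4 and 44.3 in Cpt2 knockout and no peak in any Ppara-null library. The region with the highest single peak, 54.2 kb inside and leading in 5 libraries (chr3:52322388-52322777), had 36.2 and 54.2 in wild type, 79.5 and 25.0 in Cpt2 knockout, 38.7 and 24.0 in Ppara knockout, and 39.9 and 35.4 in double knockout. Its values overlapped between all genotypes.

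Sik1 encodes a cAMP-induced kinase that restrains CREB coactivators. No start was listed, and 3 regions were within 1 kb of an end of its span. The one called in 7 libraries (chr17:31855569-31856483) had −log10 p of 40.4 and 47.0 in wild type, 51.3 and 30.8 in Cpt2 knockout, 17.4 in Ppara knockout 2, and 14.8 and 17.7 in double knockout, and none in Ppara knockout 1. The region with the highest single peak, 55.5 kb outside the span and leading in 6 libraries (chr17:31788294-31788730), had 51.3 and 123 in wild type, 142 and 79.4 in Cpt2 knockout, 32.4 and 28.9 in Ppara knockout, and 46.0 and 32.1 in double knockout. Both had lower values in every Ppara-null library with a peak. A region 14.7 kb outside (chr17:31870496-31870816) was called in the 4 Ppara-intact libraries alone, with 16.2, 14.9, 21.1 and 25.1.

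By call rule, the members' counts were close to those of all regions for Ppara status. Every library with intact Ppara and none without it called 7 of 103 regions (6.8%), against 6.82% of all regions. The reverse held for 0 members and 0.0686% of all regions. In lists of equal length, in which 66 members had a call, the first count was 2, an Irs2 and a Foxo1 region (1.34% of the 30017 regions with a call), and the reverse count was 1, the Tat region 8.4 kb from the start (0.846%). For Cpt2 status, no member was called in all 4 libraries of either kind alone, against 0.0968% of all regions for the knockout and 0.00605% for intact Cpt2.

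Between Cpt2 knockout and wild type, 4 members were called in both knockout libraries alone (3.63% of all regions) and 2 in both wild type libraries alone (0.512%). Ppara knockout gained 0 members on wild type (0.46%) and lacked 18 (13.6%), of which 8 were nearest Irs2. Double knockout gained 1, the Igfbp1 region inside the gene end (1.2%), and lacked 14 (12.9%). Against Cpt2 knockout it gained 2 (0.597%), that region and a Foxo1 region, and lacked 16 (20.4%). Against Ppara knockout it gained 3 (2.33%), these and a Tat region, and lacked 0 (1.45%). With 2 libraries against 2 these are counts without a test, and all pairs share libraries. Leaving out 1 library drops a condition of the rule, so a count could then only stay or rise. The regions lacking in Ppara knockout then numbered 31 without wild type 1 and 28 without Ppara knockout 1. Those lacking in double knockout numbered 26 without wild type 1 or, against Cpt2 knockout, 33 without Cpt2 knockout 2. Those gained on wild type by Cpt2 knockout numbered 14 without Cpt2 knockout 2, 11 without wild type 2 and 9 without Cpt2 knockout 1. The gain of double knockout on Ppara knockout was 12 without Ppara knockout 1, 11 without double knockout 2 and 7 without double knockout 1.

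The most frequent pattern after calls in all 8 libraries (27 regions, 26.2%, against 22.7% of all) and in Cpt2 knockout 1 alone (9 regions) was a gap in Ppara knockout 2 only. It held for 8 members (7.77%) and 3.2% of all regions: the starts of Pck1 and Foxo1, 3 regions inside Pcx and 3 of Irs2. Ppara knockout 2 also ranked the common regions least like the other Ppara-null libraries, with a mean Spearman rho across regions of 0.623, against 0.689 to 0.698 for the other three. Any count that needs both Ppara knockout libraries rests in part on it.

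To compare strength without the scale of a list, the 11258 regions called in all 8 libraries were ranked within each library by −log10 p, and the percentile rank was tested with limma, with Benjamini-Hochberg adjustment over these regions at 0.05. Of the 27 members among them, 1 rose with loss of Ppara (1.75% of all) and 0 fell (0.977%). At an unadjusted p under 0.05 there were 9 of 27 members, against 22.4% of all. The member that rose was the Tat region 8.4 kb from the start: its percentile was 5.06 and 0.0577 in wild type, 1.13 and 2.63 in Cpt2 knockout, 46.7 and 82.3 in Ppara knockout, and 45.7 and 56.6 in double knockout, a difference of 55.6 points (SE 8.46, limma adjusted p = 0.0332). With 1 library left out, this call was kept without Ppara knockout 1 (adjusted p = 0.038) or Ppara knockout 2 (adjusted p = 0.0472) and lost without any of the other 6 (adjusted p = 0.0799 to 0.135). It was kept with normal scores (adjusted p = 0.00227) and with the mean of the peaks in a region (adjusted p = 0.0326), and lost when the fold was ranked in place of −log10 p (difference 0.264, adjusted p = 0.979).

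Close to but not past the threshold in limma were the G6pc region 5.2 kb upstream (difference -31.3, SE 5.96, adjusted p = 0.0528), the downstream end of Pck1 (36.8, SE 8.67, adjusted p = 0.0752) and the start of Irs2 (-40.2, SE 9.71, adjusted p = 0.079). The Foxo1 region 54.2 kb inside (39.4, adjusted p = 0.0852) and the G6pc start (-34.5, adjusted p = 0.0931) completed the members with an adjusted p under 0.1. At the G6pc region the percentile was 82.2 and 72.1 in wild type, 64.3 and 61.4 in Cpt2 knockout, 8.45 and 3.39 in Ppara knockout, and 62.2 and 80.9 in double knockout. Double knockout and the Ppara-intact libraries overlapped, and Ppara knockout stood apart, with double knockout minus Ppara knockout of 65.6 points (SE 8.43, limma adjusted p = 0.0822). The interaction of the 2 knockouts at this region was 80 points (SE 11.9, limma adjusted p = 0.356).

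In the other 7 contrasts of limma no member passed: 0.417% of all regions did for double knockout against wild type and 0% for Cpt2 status, the interaction and the other 4 pairs. At an unadjusted p under 0.05 these contrasts had 3 to 9 of the 27 members and 3.68% to 18.2% of all regions. The median percentile difference with loss of Ppara was -0.997 points for the members and -0.406 for all regions.

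**Figure D5:**
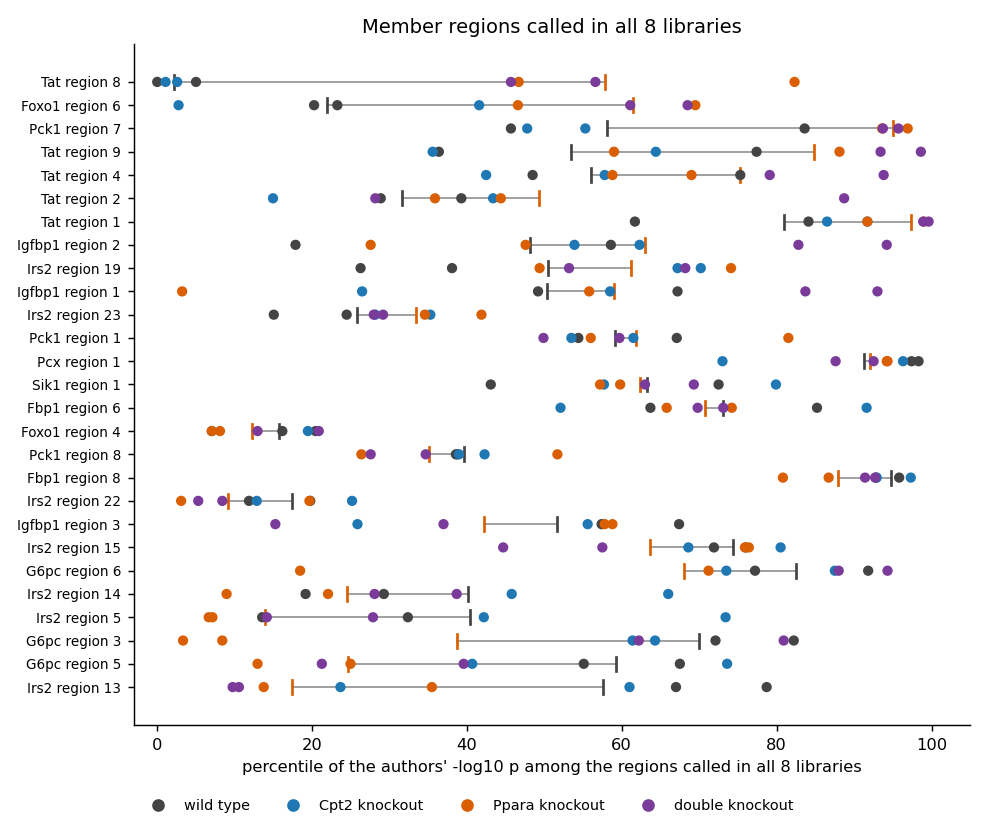
Percentile of −log10 p (x axis) among the 11258 regions called in all 8 libraries, for the 27 member regions so called, ordered by the difference between Ppara-null and Ppara-intact means; points are libraries, and grey and orange ticks are the Ppara-intact and Ppara-null means. The uppermost row, a Tat region, has all Ppara-intact points at 5.06 or lower and all Ppara-null points at 45.7 or higher.

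The tags over the summit gave more calls. This fit was added after the data were seen: log2 tags, centred on the median of each library, were tested with limma over the same 11258 regions. Centring took out a shift of the median region of -1.07 on the log2 scale between Ppara-null and Ppara-intact libraries. Relative to it, 5 of 27 members were higher in Ppara-null libraries (10.3% of all) and 3 were lower (4.19%). Higher were the downstream end of Pck1 by 1.19 (SE 0.17, adjusted p = 5.49e-05), the 2 downstream-end regions of Tat by 1.63 and 1.09, the Tat region 10.9 kb upstream by 0.85 and the Foxo1 region 54.2 kb inside by 0.85. Lower were the G6pc start (-0.76, SE 0.16, adjusted p = 0.00318), the G6pc region 5.2 kb upstream (-0.68) and the Irs2 start (-0.64). Summit tags include the local background. At the higher downstream-end regions of Pck1 and Tat, it was at the 99.5 percentile of its list or above in every library. Its part in these differences was not tested. Without centring, 1 member was higher, the Tat region 8.4 kb from the start (0.54, with 0.426% of all regions higher), and 22 were lower, as were 93% of all regions, and Pck1's downstream end differed by 0.10 and the Tat region just past the gene end by -0.01.

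In the same fit, 3 members were higher in double knockout than in Ppara knockout (0.497% of all regions): the Igfbp1 regions 4.9 kb upstream by 1.28 (SE 0.26, limma adjusted p = 0.0365) and 3.1 kb upstream by 1.11 (SE 0.24, adjusted p = 0.042), and the G6pc region 5.2 kb upstream by 1.08 (SE 0.23, adjusted p = 0.042). Without centring, only the first of these passed (1.34, adjusted p = 0.0321, with 0.311% of all regions), and the others had adjusted p = 0.0626 and 0.0815. The start regions of both genes were not among them, with 0.22 (SE 0.22) at Igfbp1 and 0.14 (SE 0.23) at G6pc. The percentile test did not call these 3 (adjusted p = 0.219, 0.182 and 0.0822), and the interaction of the knockouts was not past the threshold at any of them (adjusted p = 0.231, 0.504 and 0.231 on tags).

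Other genes of the pathway were read from lists. Of 93 regions nearest other gluconeogenic enzymes and transporters, 8 had a call in each library with intact Ppara and in none without it. Of all regions, 6.82% had this pattern. The mean shares of the 93 called were 78% and 48.7%, against 69.4% and 38.9% for all regions. The highest in rank were regions of Ldha (lactate dehydrogenase), Gpt (alanine aminotransferase), the start of Slc2a2 (the glucose transporter of hepatocytes), Mpc1 (a mitochondrial pyruvate carrier subunit) and Gpd1 (glycerol-3-phosphate dehydrogenase). At the Slc2a2 start (chr3:28697739-28698127) −log10 p was 23.9 and 46.1 in wild type and 51.6 and 15.6 in Cpt2 knockout.

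Of 32 regions of the glucagon and cAMP list, 1 was separated in this way, inside Ppargc1a, a coactivator induced in fasting, and its values were low, at 12.7 to 20.4 in the 4 libraries. Of 47 regions of the glucocorticoid list, 10 were, of which 4 were nearest Fkbp5 and 3 nearest Tsc22d3, both glucocorticoid receptor targets, and 61.7% had no call in any Ppara-null library, against 42.3% of all regions. Of 91 regions of the insulin list, 6 were, among them the start of Igfbp2 (chr1:72824369-72825023) with 18.7 and 55.3 in wild type and 28.6 and 45.2 in Cpt2 knockout, and regions inside Irs1 and Igf1. None of these lists had a region with the reverse pattern, against 0.0686% of all regions (6.82% for the first pattern). By rank, a region of Nr4a1, a cAMP-induced nuclear receptor, fell (percentile difference -30.8, SE 5.33, limma adjusted p = 0.0418), and a weak region of Fkbp5 rose (31.6, SE 5, limma adjusted p = 0.0342); the 2 lists of other enzymes and of insulin signalling had none past the threshold.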

How the data were processed

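ATAC-seq peak lists of 8 mouse liver libraries, 2 for each of 4 genotypes, were used. Per the submitters' processing notes, the authors used BWA and MACS2 2.1.0 on mm10, and each deposited list belongs to 1 library. The deposited lists give, per peak, a fold (ratio) over local background in column 7 and a −log10 p-value in column 8. How duplicates and the transposase offset were treated is not given in the sources used here. The deposited consensus table gives positions only (other, no signal), so no count test could be run, and the total tags per library are unknown.

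Genes and starts came from RefSeq (mm10, 21900 protein-coding genes; starts from its promoter table). Members and gene lists were chosen with earlier results of these data known. Named were, per member, the region at the start (or gene end), the strongest, and those separated by Ppara status or past the rank test; regions at downstream ends and the others were chosen after their values were seen. Whole tags at the summit and the local background were solved from fold and p (within 0.01 of −log10 p for 100% of peaks). Percentile ranks of the strongest peak per region were tested with limma 3.58.1 in R 4.3.3 (4 genotype means, a common spread), with a script tested on simulated data. Python 3.11.15, NumPy 2.4.6, pandas 2.3.3, SciPy 1.17.1 and matplotlib 3.10.9 were used. Alternatives were equal-length lists, a −log10 q of at least 20, a peak covering 50% of the region, limits of 10 kb or of 100 kb to any gene, other ranks, a replicate block and leaving out each library; the fit on tags, the ratio of gene end to start and the left-out libraries of pairs were added after seeing the data.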

Additional observations from a re-analysis of the deposited data

Results flagged for a closer look

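In 56 sets of 4 libraries (the 27 regions called throughout and the share of regions called, for each Ppara status), 4 had a library far from the other 3. Chance flags about 1 in 20 such sets. The gap to the nearest library over the range of the 4 was 0.921 at the first start of Pcx, where Cpt2 knockout 2 was lowest at the 73.0 percentile and the others were at 96.3 to 98.3. It was 0.892 at the Pck1 region 17.3 kb downstream of the start, where Cpt2 knockout 2 was highest (42.3, against 38.6 to 39.0). It was 0.844 at the Irs2 start, where Ppara knockout 2 was highest (35.5, against 9.79 to 13.8), and 0.911 at the Tat region 10.9 kb upstream, where Ppara knockout 2 was lowest (91.7, against 98.9 to 99.6). The last 2 regions are among those called in the fit on tags.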

How the results depend on the processing

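The fall in the members' share called with loss of Ppara kept its direction under all alternatives, at -31.5 to -24.7 points with 1 library left out, and was -2.43 points in equal-length lists. The 7 members called in Ppara-intact libraries alone became 2 in equal-length lists, 13 at −log10 q of at least 20, 11 with 50% cover, 2 within 10 kb, 17 over every region within 100 kb and 7 to 11 with 1 library left out (11 without wild type 1, Cpt2 knockout 2 or double knockout 1); the reverse count of 0 became 1 in equal-length lists. In equal-length lists, pair counts became 0 (Cpt2 knockout alone against wild type, from 4), 0 (wild type alone, from 2), 2 (Ppara knockout alone, from 0), 6 (wild type alone, from 18), 5 (double knockout alone against wild type, from 1), 4 (wild type alone, from 14) and 3 (Cpt2 knockout alone against double knockout, from 16). At −log10 q of at least 20 they became 0 (wild type alone against Cpt2 knockout), 2 (Ppara knockout alone against wild type), 2 (double knockout alone against wild type) and 0 (double knockout alone against Cpt2 knockout). Leaving out 1 library can only keep or raise a count of this kind. The pair counts, in the order of the report, then ran 5 to 14, 2 to 6, 0 to 3, 20 to 31, 1 to 5, 15 to 26, 2 to 5, 18 to 33, 4 to 12 and 0 to 2.

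The percentile test called 307 of all regions and 1 member for Ppara status. These became 155 and 0 with fold, 644 and 5 with normal scores, 123 and 0 in equal-length lists (where the Tat region was not called throughout), 304 and 1 with the mean of the peaks in a region, and 1637 and 8 with tags. With a replicate block they were 97 and 0; replicate numbers did not pair the samples, since deviations of same-numbered libraries correlated at -0.0364 to 0.0784, and the Tat region then had an adjusted p of 0.0538. With 1 library left out the counts were 0 to 205 and 0 to 1, where a lone library is assumed to vary like the others. All regions gave 0 without wild type 2, Cpt2 knockout 1, double knockout 1 or double knockout 2. The Tat difference was then 46.7 to 64.5 (adjusted p 0.038 to 0.135), and over all alternatives that gave the region a value its adjusted p was 8.93e-06 to 0.979. Causes were not tested. Depth limits absence: a region without a peak lies under the threshold of a list, which is not a measured 0.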
